A study of Danio rerio with 25 samples.

Results

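A set of 5 genes of the larval zebrafish transcriptome is described here in every library of the series, out of 32520 genes listed and 25832 genes tested. They are meltf (ENSDARG00000075159), ENSDARG00000068947, b3gnt3 (ENSDARG00000043482), prg4b (ENSDARG00000028163) and si:ch211-103n10.5 (ENSDARG00000077504). They were chosen by their own counts in this series, which differed between dmd mutants that completed endurance neuromuscular electrical stimulation (eNMES) and dmd mutant controls, so that difference is given as a description without a test. All 5 passed the filter on low counts, which asked for at least 10 counts summed over the libraries.

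The study asked what eNMES changes in a zebrafish model of Duchenne muscular dystrophy, in which the sapje ta222a allele of dmd removes functional dystrophin. Larvae received 3 sessions of stimulation, on days 2, 3 and 4 post-fertilization (dpf), and RNA was taken from whole larvae at 7 dpf, 3 days after the last session. Each library pooled 2 larvae, which had been sorted beforehand on how severe the disease was when it began and on a later change in birefringence, the brightness of muscle under polarized light. The groups were dmd mutants with eNMES (9 libraries examined, replicates 2 to 10), dmd mutant controls without stimulation (8 libraries), WT siblings with eNMES (3 libraries) and WT sibling controls (4 libraries). All 4 groups came from spawns of sapje fish and were fed from 5 dpf. The stimulated dmd mutant library numbered 1 was not analysed here.

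The genes of known function have different roles. Melanotransferrin, which meltf encodes, is an iron-binding relative of transferrin that in mammals is held at the cell surface by a lipid anchor. The enzyme family of b3gnt3 adds N-acetylglucosamine to galactose and so extends O-linked sugar chains on mucins and selectin ligands. Proteoglycan 4, or lubricin, is the product of prg4 genes in mammals, a mucin-like glycoprotein that lubricates joints, is also made in the liver and carries many of these O-linked sugars. ENSDARG00000068947 and si:ch211-103n10.5, which carry clone-based names, have no function in the sources used here. In RNA from whole larvae, fewer cells of a type and less RNA per cell cannot be told apart.

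The value used below is the normalized count, the estimated read count of a gene scaled to a common library size. A gene was called in a comparison when its log2 fold change exceeded 0.6 in either direction at a p, adjusted by Benjamini and Hochberg's method, below 0.1 in edgeR's quasi-likelihood test on all 24 libraries. Where libraries of 2 groups are said not to overlap, the share of all genes that separate as fully was not counted. Library totals lay between 17242201 and 22808348 estimated counts, except replicate 8 of the dmd mutants with eNMES, which had 7957160. The labels were checked on dmd itself, which lay between 1008 and 1435 normalized counts in dmd mutants with eNMES and between 1055 and 1324 in dmd mutant controls, against 3511 to 4599 in WT siblings with eNMES and 2588 to 5395 in WT sibling controls. The libraries were also divided by 33 genes of the circadian clock, whose first principal component was negative in 5 and positive in 4 libraries of dmd mutants with eNMES, and negative in 5 and positive in 3 of dmd mutant controls. All 3 WT siblings with eNMES were negative and all 4 WT sibling controls were positive, so treatment and clock state cannot be told apart in WT siblings. The comparisons between genotypes were also unbalanced for clock state, since both groups of dmd mutants held libraries of both signs. The part of clock state in the genotype differences below was not tested.

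Between dmd mutants with eNMES and dmd mutant controls, 33 of 25832 genes were called (0.128%), 20 higher (0.0774%) and 13 lower (0.0503%). The 5 genes are among them by choice. In the order of p, meltf stood at place 4, prg4b at 15, si:ch211-103n10.5 at 19, b3gnt3 at 48 and ENSDARG00000068947 at 78, since genes with a smaller fold change stood between them. The 3 genes that were lower were meltf, ENSDARG00000068947 and b3gnt3, and the 2 that were higher were prg4b and si:ch211-103n10.5. Called genes beside them in that order included pih1d2 (log2 fold change -1.48 in dmd mutants and 0.06 in WT siblings), mhc2dab (2.07 and 0.56) and aplf (0.93 and 0.29).

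**Figure D1:**
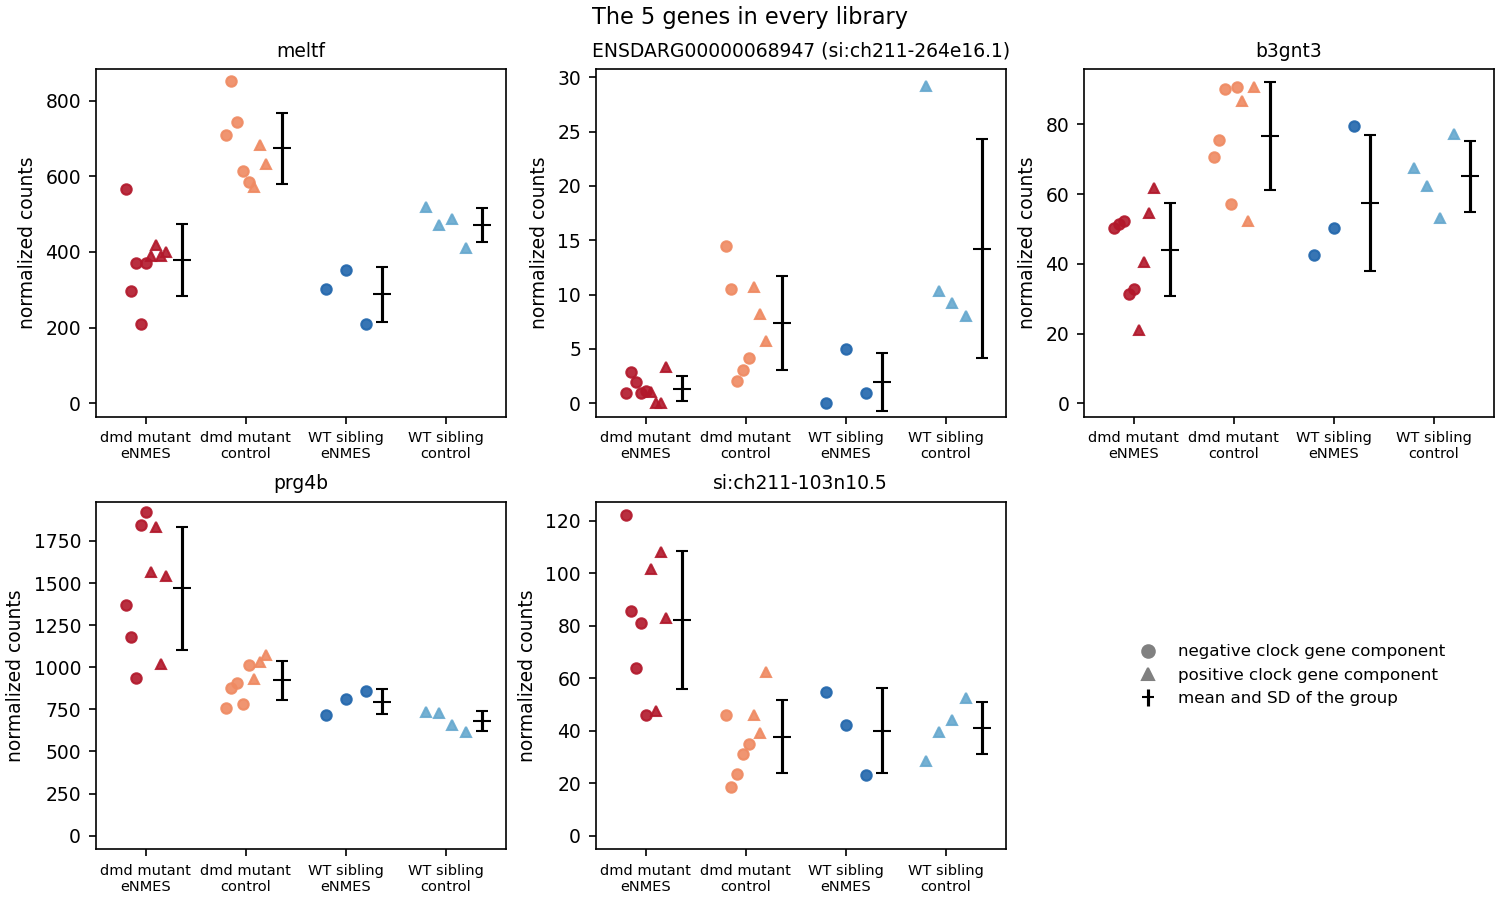
Normalized counts of the 5 genes (vertical axes, starting near 0) in every library, with 1 point per library, the mean and the SD of each group, and circles or triangles for a negative or positive clock gene component. For meltf all 9 libraries of dmd mutants with eNMES lie below all 8 of dmd mutant controls, and for the other 4 genes 7 of the 9 lie outside the range of the controls.

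Transcripts of meltf were lower with eNMES in both genotypes, and were highest in dmd mutant controls. In dmd mutants with eNMES, replicates 2 to 10 had 567, 298, 370, 208, 372, 390, 419, 388 and 401 normalized counts of meltf, against 710, 851, 742, 615, 586, 573, 684 and 631 in replicates 1 to 8 of dmd mutant controls. The highest stimulated library, replicate 2, lay just under the lowest control, and the groups did not overlap. The means of meltf were 379 ± 95.8 with eNMES (SD, n = 9) and 674 ± 93.0 in controls (SD, n = 8), a log2 fold change of -0.83 (SE 0.14) that corresponds to a level 1.78 times lower with eNMES. The difference had the same direction in both clock sets of dmd mutants. Among libraries with a negative component, meltf averaged 363 with eNMES and 701 in controls, and among those with a positive component 399 and 629.

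WT siblings showed the same order for meltf, with 303, 353 and 209 normalized counts in the 3 stimulated libraries and 519, 472, 486 and 411 in the 4 controls. These groups did not overlap either. In WT siblings the log2 fold change was thus -0.71 (SE 0.22), and their means were 288 ± 73.0 and 472 ± 45.2. In this comparison 763 of 25832 genes were called (2.95%), 271 higher (1.05%) and 492 lower (1.9%). It also took part in the choice of meltf and ENSDARG00000068947, the genes called in both genotypes, so neither gets a test here.

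The groups of meltf also differed by genotype. All 8 dmd mutant controls lay above all 4 WT sibling controls, with a log2 fold change of 0.51 (SE 0.17), and 7 of 9 dmd mutants with eNMES lay above all 3 WT siblings with eNMES, with a log2 fold change of 0.40 (SE 0.19). Over all genes, 807 were called between the controls of the genotypes (3.12%, with 2.43% higher and 0.693% lower) and 1018 between the stimulated larvae (3.94%, with 3% higher and 0.941% lower). These comparisons share libraries with the one that chose the genes and are given as a description. Ordered by mean, dmd mutant controls came first, then WT sibling controls, dmd mutants with eNMES and WT siblings with eNMES. The middle pair of this order overlapped, since the WT sibling controls at 411 to 519 lay within the range of 208 to 567 of dmd mutants with eNMES. Per length, meltf averaged 9.93 TPM, a level scaled for transcript length and library size, in dmd mutants with eNMES, 17.8 TPM in dmd mutant controls, 7.99 TPM in WT siblings with eNMES and 12.7 TPM in WT sibling controls.

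For other genes of iron handling the shares in dmd mutants were close to those of all genes tested. Of 20 such genes, 0 were called at this contrast by edgeR or DESeq2, where 0.128% of all genes were, 3 (15%) had an unadjusted p under 0.05, beside 10.3% of all genes, and their median log2 fold change was 0.00, beside -0.00 over all genes tested. The ends of the list were STEAP3, a ferric reductase of endosomes, at -0.49 (adjusted p = 0.802) and hamp, the hormone hepcidin that limits iron export, at 0.43 (adjusted p = 0.802, both from edgeR). In WT siblings 0 of the 20 were called by edgeR and 1 by DESeq2, and 6 (30%) had an unadjusted p under 0.05, beside 17.5% of all genes, with a median log2 fold change of -0.21 beside 0.01 over all genes. SLC40A1, the iron exporter ferroportin, was at 0.56 in WT siblings with an adjusted p of 0.0322 by edgeR, under the fold needed for a call. CP, the copper-containing ferroxidase ceruloplasmin, was higher in dmd mutant controls than in WT sibling controls, with a log2 fold change of 0.75 (SE 0.17, edgeR adjusted p = 0.00966). It was the 1 of the 20 called there, beside 3.12% of all genes. CP is also one of the 9 liver markers used below, of which 4 were called higher in that comparison.

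Neighbours were the nearest tested genes whose symbol in the RefSeq assembly GRCz12tu matched 1 gene ID, and other genes between were skipped. The 6 around meltf, which include dlg1a and lrrc40 on either side, had log2 fold changes of -0.05 to 0.11 between dmd mutants with eNMES and controls. Of 24 such neighbours of 4 genes, 1 was called in WT siblings, beside 2.95% of all genes. It was fut9d near the b3gnt3 genes, a fucosyltransferase gene by its name, at a log2 fold change of -0.81 (edgeR adjusted p = 0.0770). The place of b3gnt3 itself was assumed, since its copy in the run of B3GNT3 genes is not known.

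The transcript of ENSDARG00000068947 was scarce, and was lower with eNMES in both genotypes. Its estimated counts ran from 0 to 32 and were whole, within 0.05, in 24 of 24 libraries. In dmd mutants with eNMES it had 0.97, 2.92, 1.94, 0.95, 1.09, 1.06, 0, 0 and 3.34 normalized counts in replicates 2 to 10, against 14.5, 10.6, 2.05, 3.11, 4.21, 10.7, 8.21 and 5.74 in replicates 1 to 8 of dmd mutant controls. Of the stimulated libraries 7 of 9 lay below every control, while replicates 3 and 10 reached into the lower end of the control range. This gave a log2 fold change in dmd mutants of -2.22 (SE 0.53). In dmd mutants with a negative clock component the means were 1.57 with eNMES and 6.88 in controls, and with a positive component 1.1005 and 8.21. At such counts a library at 0 does not show that the transcript is absent.

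In WT siblings ENSDARG00000068947 had 0, 5.02 and 0.96 normalized counts with eNMES and 29.2, 10.4, 9.20 and 7.99 in controls. All 3 stimulated libraries lay below all 4 controls. Their log2 fold change was -2.80 (SE 0.75). Leaving out replicate 2 of the WT siblings with eNMES, the highest stimulated library, gave -4.58, and leaving out replicate 1 of the WT sibling controls, the highest control, gave -2.18. Between genotypes the log2 fold change was -0.92 (SE 0.46) in controls and -0.35 (SE 0.88) in stimulated larvae, with overlapping libraries in both. The second of these turned to 1.44 without replicate 2 of the WT siblings with eNMES.

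A lower level with eNMES in dmd mutants and overlapping levels in WT siblings were seen for b3gnt3. Across dmd mutants with eNMES, b3gnt3 had 50.4, 51.6, 52.3, 31.4, 32.7, 21.1, 40.5, 54.5 and 61.9 normalized counts in replicates 2 to 10, against 70.5, 75.5, 90.2, 57.0, 90.6, 86.6, 52.4 and 90.9 in replicates 1 to 8 of dmd mutant controls. All but replicates 9 and 10 of the stimulated larvae lay below every control. The means were 44.1 ± 13.3 and 76.7 ± 15.5 (SD, n = 9 and 8), a log2 fold change of -0.79 (SE 0.17). The clock sets gave 43.7 with eNMES and 76.8 in controls for a negative component, and 44.5 and 76.6 for a positive one.

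WT siblings were not used to choose b3gnt3, and there a test was possible. They had 42.6, 50.2 and 79.5 normalized counts with eNMES and 67.6, 62.3, 53.1 and 77.2 in controls. The first 2 stimulated libraries lay below all controls and the remaining one above them, so the groups overlapped. Their log2 fold change was -0.18 (SE 0.27, 95% interval -0.71 to 0.34), with an adjusted p of 0.792 by edgeR and a p of 0.457 by a two-sided exact permutation test, in which 3 libraries against 4 cannot go below 0.0571. The interval includes no change as well as a fall of up to 0.71 on the log2 scale. Without replicate 3 of the stimulated WT siblings the log2 fold change was -0.51. Between genotypes b3gnt3 differed by 0.23 (SE 0.21) in controls and by -0.37 (SE 0.24) in stimulated larvae on the log2 scale.

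The zebrafish genome carries a run of B3GNT3 genes, and 4 gene IDs share this name, so reads from one may be assigned to another. Estimated counts of b3gnt3 were whole, within 0.05, in 18 of 24 libraries, against 12, 19 and 10 libraries for the 3 other IDs, and a count that is not whole shows that reads were shared out. Which ID belongs to which copy of the run was not given in the sources used here. The sum over the 4 IDs was 152 ± 23.9 normalized counts in dmd mutants with eNMES and 212 ± 21.996 in dmd mutant controls (SD, n = 9 and 8), and 193 ± 26.2 in WT siblings with eNMES and 197 ± 6.20 in WT sibling controls (SD, n = 3 and 4).

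Of the 3 other IDs, ENSDARG00000093521 had the lowest edgeR adjusted p for a difference in its eNMES change between the genotypes. Across dmd mutants with eNMES, B3GNT3 ENSDARG00000093521 had 17.4, 23.4, 26.2, 6.66, 7.64, 4.23, 4.76, 7.48 and 6.69 normalized counts in replicates 2 to 10, against 54.2, 25.2, 32.8, 29.0, 46.3, 30.996, 22.6 and 33.5 in replicates 1 to 8 of dmd mutant controls. Replicates 2, 3 and 4 of the stimulated mutants stood well above the remaining 6, and 2 of those 3 reached into the control range. The log2 fold change in dmd mutants was -1.51 (SE 0.30, edgeR adjusted p = 0.0382), and 7 of 9 stimulated libraries lay below every control. This ID may share reads with b3gnt3, which these libraries chose, so that p may depend on the choice. In both clock sets the stimulated mean was lower, at 16.3 with eNMES and 37.5 in controls for a negative component and 5.79 and 29.0 for a positive one, but in the negative set alone the call was lost (log2 fold change -1.19, edgeR adjusted p = 0.587).

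In WT siblings the values of B3GNT3 ENSDARG00000093521 lay in the other direction, with 37.8, 31.1 and 60.3 normalized counts with eNMES and 17.4, 23.9, 17.4 and 31.1 in controls. All 3 stimulated libraries lay above all 4 controls, replicate 2 only just. At 0.94 (SE 0.42), the log2 fold change had an adjusted p of 0.231 by edgeR and did not pass. The two-sided exact permutation test gave a p of 0.0571, the lowest it can reach with 3 libraries against 4. The change in dmd mutants minus that in WT siblings was -2.44 on the log2 scale (SE 0.51), with an adjusted p of 0.0235 in edgeR for the difference itself. It draws on the dmd mutant libraries that chose b3gnt3. Since treatment and clock state go together in WT siblings, it also cannot be told apart from clock state. Over all genes 477 of 25832 were called for such a difference (1.85%), 308 higher (1.19%) and 169 lower (0.654%). Without replicate 3 of the stimulated WT siblings, the highest library, the difference was -2.11 and no longer passed (edgeR adjusted p = 0.128).

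The second ID, B3GNT3 ENSDARG00000054373, was scarce, at 0 to 11.9 estimated counts. It had 0 normalized counts in 4 of 9 libraries of dmd mutants with eNMES and at most 5.84, against a median of 6.99 and 1 library at 0 among the 8 dmd mutant controls. The log2 fold change in dmd mutants was -2.07 (SE 0.54) and did not pass (edgeR adjusted p = 0.126), though it did without replicate 3 of the stimulated mutants (-2.79) or replicate 4 of the controls (-2.25). In WT siblings it had 11.4, 11.05 and 9.57 normalized counts with eNMES and 9.14, 3.11, 4.09 and 7.10 in controls, a log2 fold change of 0.83 with an adjusted p of 0.525 by edgeR. The two-sided exact permutation test again gave its lowest possible p of 0.0571. The difference of the changes was -2.90 (SE 0.82, edgeR adjusted p = 0.0759), and it lost its call in 11 of 24 fits that left out 1 library, at -3.17 to -2.70. Those were the fits without replicates 7, 8 and 9 of the stimulated dmd mutants, 3 and 5 of their controls, 1, 2 and 3 of the stimulated WT siblings and 1, 2 and 3 of their controls. Like that of ENSDARG00000093521, this difference draws on the dmd mutant libraries that chose b3gnt3 and cannot be told apart from clock state. The third, B3GNT3 ENSDARG00000058100, averaged 94.98 normalized counts in dmd mutants with eNMES and 95.02 in dmd mutant controls (log2 fold change -0.00, SE 0.10, edgeR adjusted p = 0.997), and 81.9 in WT siblings with eNMES against 104 in WT sibling controls (edgeR adjusted p = 0.265). Its 2 changes differed by 0.34 (edgeR adjusted p = 0.432).

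**Figure D2:**
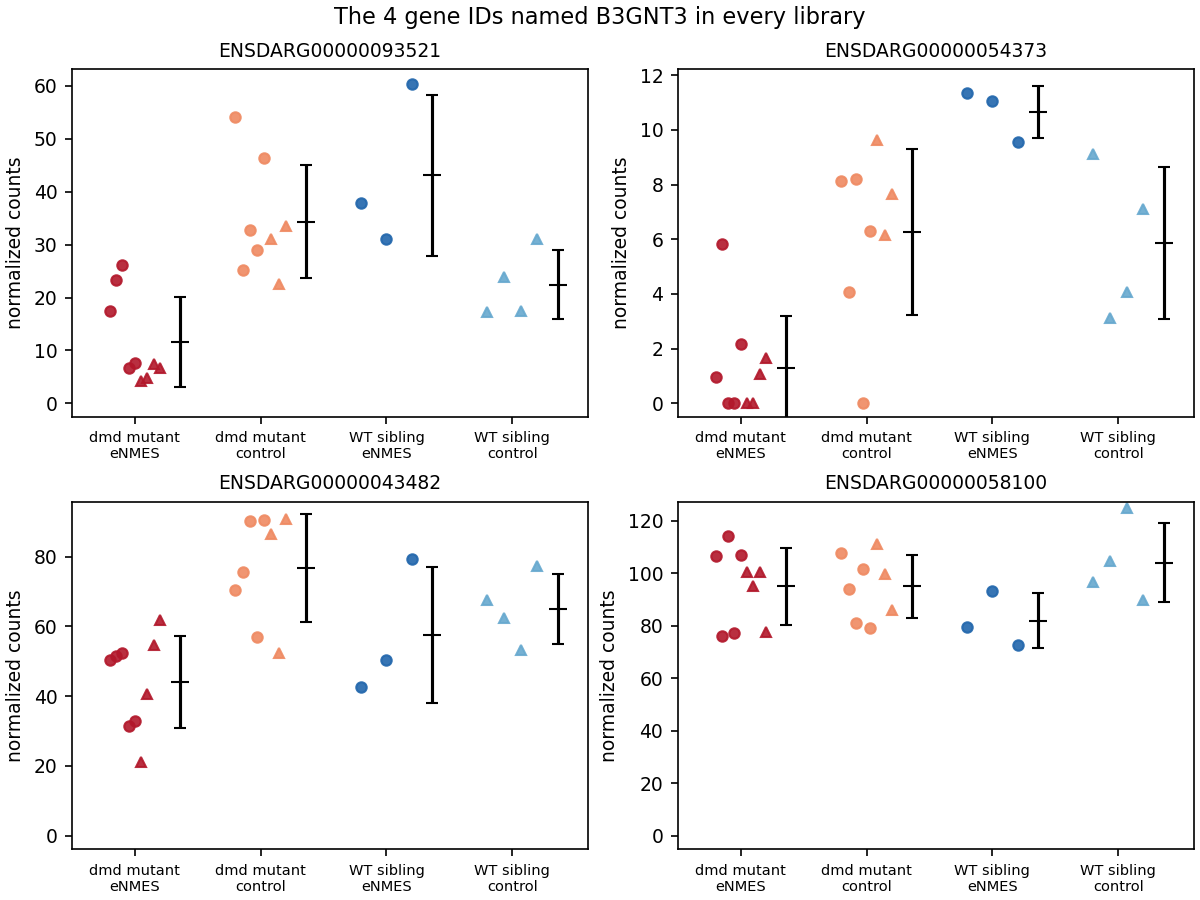
Normalized counts (vertical axes, starting near 0) of the 4 gene IDs named B3GNT3 in every library, with the mean and SD of each group and symbols for the clock gene component as circles (negative) and triangles (positive). ENSDARG00000093521 is lower with eNMES in dmd mutants, where it averages 11.6 against 34.3 in controls, and higher in WT siblings, where it averages 43.1 against 22.4, while ENSDARG00000058100 averages 94.98 and 95.02 in the same groups of dmd mutants.

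Of 36 tested genes that build O-linked sugar chains and their extensions, the other B3GNT3 IDs included, 0 were called higher in dmd mutants with eNMES. The 1 called lower, beside 0.0503% of all genes, was B3GNT3 ENSDARG00000093521, whose call was lost in the negative clock set. An unadjusted p under 0.05 was found for 4 (11.1%), beside 10.3% of all genes, and the median log2 fold change of the list was -0.01. At the upper end of this list stood b3gnt7l at 0.25 (edgeR adjusted p = 0.329). In WT siblings 0 were called higher and 1 lower, b4galt1, which adds galactose to N-acetylglucosamine, at -0.84 (SE 0.27, edgeR adjusted p = 0.0880), a share near the 2.95% called over all genes. That count was 0 without replicate 2 or 3 of the stimulated WT siblings or replicate 1 or 2 of their controls, and 2 without replicate 1 of the stimulated larvae or replicate 4 of the controls. In WT siblings 12 of the 36 (33.3%) had an unadjusted p under 0.05, beside 17.5% of all genes, and the median was -0.05.

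The transcript of prg4b had its highest mean in dmd mutants with eNMES, then dmd mutant controls, and its lowest in WT sibling controls. In dmd mutants with eNMES, prg4b had 1372, 1177, 938, 1842, 1919, 1567, 1834, 1021 and 1540 normalized counts in replicates 2 to 10, against 758, 877, 905, 780, 1015, 932, 1032 and 1072 in replicates 1 to 8 of dmd mutant controls. The stimulated group was wide, with replicates 4 and 9 inside the control range and the other 7 of 9 above every control. The means of prg4b were 1468 ± 365 and 922 ± 115 (SD, n = 9 and 8), a log2 fold change of 0.67 (SE 0.13). By clock set they were 1450 with eNMES and 867 in controls where the component was negative, and 1490 and 1012 where it was positive.

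WT siblings had 716, 812 and 858 normalized counts of prg4b with eNMES and 732, 728, 654 and 612 in controls. In these counts the lowest stimulated library lay among the controls. The log2 fold change of prg4b in WT siblings was 0.22 (SE 0.20, 95% interval -0.16 to 0.61), with an adjusted p of 0.620 by edgeR and a p of 0.171 by the two-sided exact permutation test, and the interval holds both no change and a rise close to 0.61. As for b3gnt3, the lack of a call there was known beforehand. Between genotypes, all 8 dmd mutant controls lay above all 4 WT sibling controls (log2 fold change 0.43, SE 0.16), and all 9 dmd mutants with eNMES lay above all 3 WT siblings with eNMES (0.88, SE 0.18).

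The share of prg4b reads given to its transcripts also varied, both between genotypes and between the 2 groups of WT siblings. The deposited length of a gene is the mean over its transcripts, weighted by their abundance, and prg4b has 2 transcripts. This length was 2826 bases in 17 of 17 dmd mutant libraries. It was 2597, 2330 and 2546 bases in the 3 WT siblings with eNMES and 2826, 2726, 2684 and 2826 bases in the 4 WT sibling controls, so a shorter transcript received reads in 5 of 7 WT sibling libraries. All 3 stimulated WT siblings had a shorter length than any of the 4 controls. Treatment and clock state cannot be told apart in that difference. Of 10476 genes with several transcripts that averaged at least 50 normalized counts, 616 had a single length in all dmd mutant libraries, and prg4b was the 1 gene of these whose length differed by over 0.5 bases in at least 5 WT sibling libraries. It was singled out after the values were seen and carries no test. A shorter length raises the level per length, so that prg4b averaged 39.1 TPM in dmd mutants with eNMES, 24.5 TPM in dmd mutant controls, 25.8 TPM in WT siblings with eNMES and 19.0 TPM in WT sibling controls. The stimulated WT siblings thus stood below dmd mutant controls in counts and slightly above them per length. Per length, WT siblings had 22.4 to 27.7 TPM with eNMES and 16.7 to 20.9 TPM in controls. These groups overlapped in counts but not per length. The estimated counts of prg4b were whole, within 0.05, in 5 of 24 libraries, which shows that reads were shared with other features.

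**Figure D3:**
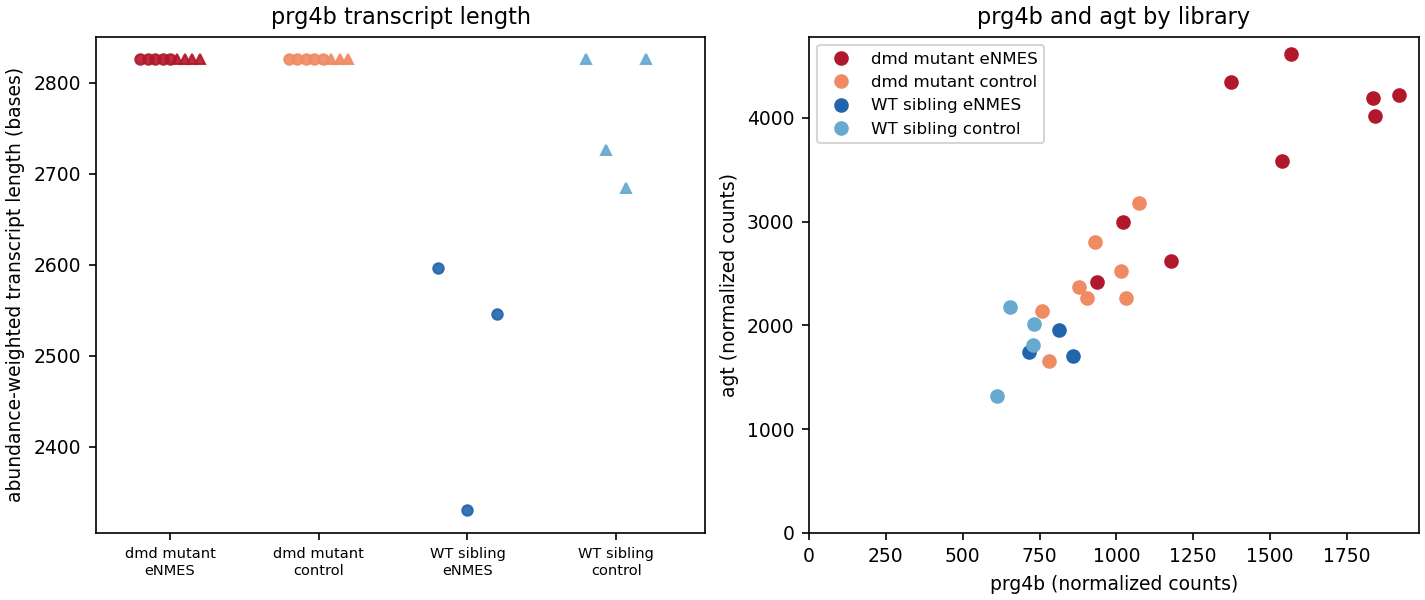
Left, the abundance-weighted transcript length of prg4b in bases (the axis does not start at 0) in every library by group, with circles for a negative and triangles for a positive clock gene component. The length is 2826 bases in all dmd mutant libraries and is shorter in 5 of 7 WT sibling libraries, with the lowest values in WT siblings with eNMES. Right, normalized counts of prg4b and agt, 1 point per library, with the highest values of both in dmd mutants with eNMES.

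Its paralog prg4a was low and did not pass the test in either genotype. It averaged 19.8 normalized counts in dmd mutants with eNMES and 19.4 in dmd mutant controls (log2 fold change 0.04, SE 0.20, edgeR adjusted p = 0.977), and 24.5 in WT siblings with eNMES and 28.8 in WT sibling controls (-0.23, edgeR adjusted p = 0.755). Genes of joint, cartilage and tendon matrix had mostly negative fold changes in dmd mutants with eNMES, while prg4b was higher. Of 39 tested, 9 (23.1%) had a positive fold change, beside 48.6% of all genes, and the median change was -0.17 on the log2 scale. An unadjusted p under 0.05 was found for 16 (41%), beside 10.3% of all genes, and 0 were called by edgeR or DESeq2, beside 0.128% of all genes. Among WT siblings 0 were called by edgeR and 1 by DESeq2, 7 (17.9%) had an unadjusted p under 0.05, beside 17.5% of all genes, and the median was -0.11. Between dmd mutant controls and WT sibling controls 2 were called higher, beside 2.43% of all genes, and 0 lower, beside 0.693%. The median of the list there was 0.32, beside 0.01 over all genes. Called were CILP, a cartilage matrix protein, at 0.92 (SE 0.09, edgeR adjusted p = 5.1e-07) and MATN3, a matrilin of cartilage, at 0.75 (SE 0.25, edgeR adjusted p = 0.0777). Between the stimulated larvae 6 were called higher, beside 3% of all genes, and 0 lower, beside 0.941%.

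The gene whose variation within groups was most like that of prg4b was agt, which encodes angiotensinogen, a plasma protein made mainly in the liver. After group means were removed, Pearson's r between prg4b and agt was 0.74 over 24 libraries, the highest of 17058 genes compared. How high the best of that many genes would reach by chance was not tested. With the group means left in r was 0.92, which includes the eNMES difference that chose prg4b. Both values describe libraries that share their normalization. Across dmd mutants with eNMES agt ranged from 2416 to 4617 normalized counts with a median of 4013, against 1658 to 3177 with a median of 2314 in dmd mutant controls. It was itself called in that contrast, at a log2 fold change of 0.61 (SE 0.14, edgeR adjusted p = 0.0817). In WT siblings agt had 1739, 1950 and 1700 normalized counts with eNMES and 2013, 1811, 2177 and 1320 in controls (log2 fold change -0.03, edgeR adjusted p = 0.973).

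Liver markers were not called higher beside prg4b and agt. Their summed level was 6764 to 9830 TPM in dmd mutants with eNMES and 7732 to 9877 TPM in dmd mutant controls, and 5302 to 5788 TPM in WT siblings with eNMES and 5050 to 6037 TPM in WT sibling controls. None of the 9 markers was at 0 in every library. In dmd mutants with eNMES 0 of 9 were called by edgeR or DESeq2, beside 0.128% of all genes by edgeR. An unadjusted p under 0.05 was found for 1 (11.1%), beside 10.3% of all genes, and the median log2 fold change was 0.04. Between the controls of the genotypes 4 of the 9 were called higher, beside 2.43% of all genes, and 0 lower, beside 0.693%. Between the stimulated larvae 6 were called higher, beside 3% of all genes, and 0 lower, beside 0.941%. The part of liver content in the genotype difference of prg4b was not tested.

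The gene si:ch211-103n10.5 had the larger fold change of the 2 genes that were higher in dmd mutants, and its levels in WT siblings overlapped. In dmd mutants with eNMES it had 122, 85.6, 64.0, 80.9, 45.8, 101, 47.6, 108 and 82.8 normalized counts in replicates 2 to 10, against 46.1, 18.7, 23.6, 31.1, 34.8, 46.0, 39.0 and 62.2 in replicates 1 to 8 of dmd mutant controls. Replicates 6 and 8 with eNMES lay inside the control range and the other 7 of 9 above it. The means were 82.0 ± 26.2 and 37.7 ± 13.9 (SD, n = 9 and 8), a log2 fold change of 1.14 (SE 0.23). By clock set, si:ch211-103n10.5 averaged 79.7 with eNMES and 30.8 in controls for a negative component, and 85.0 and 49.0 for a positive one.

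In WT siblings si:ch211-103n10.5 had 54.9, 42.2 and 23.0 normalized counts with eNMES and 28.3, 39.4, 43.9 and 52.4 in controls. The stimulated libraries spread over the whole range of the controls and beyond it on both sides. Their log2 fold change was -0.04 (SE 0.36, 95% interval -0.75 to 0.68), with an adjusted p of 0.978 by edgeR and a p of 0.914 by the two-sided exact permutation test. As for b3gnt3, the lack of a call there was known beforehand. No p is given for a difference between the genotypes in the eNMES change of any of the 5 genes, since the dmd mutant libraries chose them. In the fit over all genes, edgeR called 0 of the 5 for such a difference, beside 1.85% of all genes. DESeq2 called 1 of the 5. A difference between the genotypes is thus not shown for b3gnt3, prg4b or si:ch211-103n10.5. The sign in WT siblings depended on single libraries, at 0.23 without replicate 3 of the stimulated larvae and 0.11 without replicate 4 of the controls. Dmd mutant controls and WT sibling controls had similar means, 37.7 and 41.0 ± 10.0 (log2 fold change -0.13, SE 0.29), while dmd mutants with eNMES exceeded WT siblings with eNMES, which averaged 40.0 ± 16.1 (1.05, SE 0.32). Its estimated counts were whole, within 0.05, in 24 of 24 libraries.

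**Figure D4:**
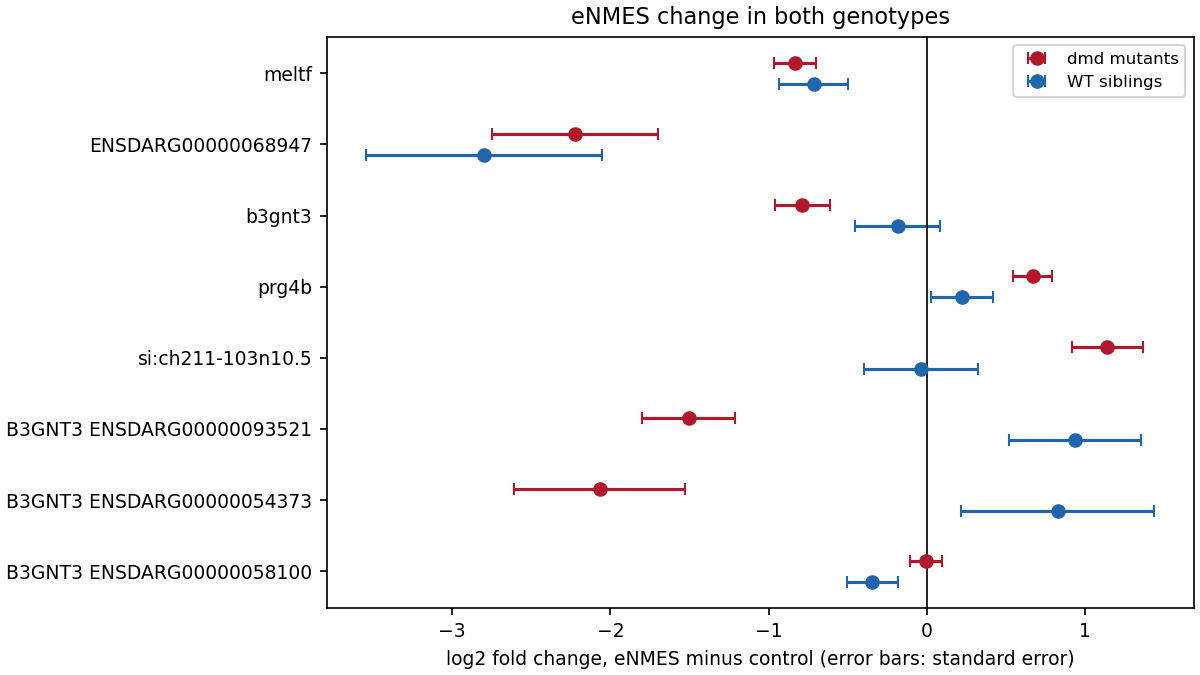
Log2 fold change of eNMES minus control (horizontal axis, bars of 1 standard error) in dmd mutants and in WT siblings for the 5 genes and the 3 other IDs named B3GNT3, from the same edgeR fit. For meltf and ENSDARG00000068947 both genotypes lie below 0, while si:ch211-103n10.5 is at 1.14 in dmd mutants and at -0.04 in WT siblings.

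The 5 genes shared little variation within groups. With group means removed, the 10 correlations among them lay between -0.29 (b3gnt3 and prg4b) and 0.09 (meltf and ENSDARG00000068947) over 24 libraries. Those of ENSDARG00000068947 rest on few reads, at 0 to 32 estimated counts per library, which limits them. A library of dmd mutants with eNMES that was near the controls for 1 gene was often not so for another. Replicate 9 stood inside the control range for b3gnt3 and prg4b, replicate 10 for ENSDARG00000068947 and b3gnt3, replicate 3 for ENSDARG00000068947 alone, replicate 4 for prg4b alone and replicates 6 and 8 for si:ch211-103n10.5 alone. Replicates 2, 5 and 7 lay outside the control range, on the side of the group, for all 5 genes.

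The genes with the closest within-group variation to the other 4 had an r of 0.72 to 0.80 over the same libraries, the highest of 17058 genes in each case. Whether these exceed what the best of that many genes would reach by chance was not tested. For meltf the nearest were MTCH2 (r = 0.78), DAP3 (0.78) and ILVBL (0.74), for b3gnt3 RAB9B (0.72) and for si:ch211-103n10.5 hbae1.2 (0.75). For ENSDARG00000068947 it was crygm2d8 (0.80), a value limited by the few counts of ENSDARG00000068947. With the group means left in, r was 0.74 for ILVBL and otherwise lower, at 0.52 for MTCH2, 0.38 for DAP3, 0.55 for crygm2d8, 0.55 for RAB9B and 0.56 for hbae1.2. None of these was called in dmd mutants with eNMES, and their log2 fold changes there lay between -0.22 for ILVBL and -0.01 for hbae1.2.

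Markers of other tissues were set beside the 5 genes. In dmd mutants 0 of the 11 skeletal muscle, 13 intestine, 9 exocrine pancreas, 12 epidermis and 16 tested leukocyte markers were called with eNMES by edgeR or DESeq2, with 3, 4, 1, 2 and 4 of them at an unadjusted p under 0.05, beside 10.3% of all genes. The medians of their log2 fold changes were 0.00, -0.14, -0.05, -0.16 and 0.18 in the same order. Of the leukocyte markers 13 of 16 (81.2%) had a positive fold change, beside 48.6% of all genes. Several of these markers are gene IDs that share the name MFAP4 or MPEG1. IDs named MFAP4 stood at both ends of the list, at log2 fold changes of -1.02 and 1.07. The sum of the leukocyte markers averaged 278 ± 32.6 TPM (206 to 308) in dmd mutants with eNMES and 232 ± 26.9 TPM (202 to 292) in dmd mutant controls (SD, n = 9 and 8). Epidermis markers lay in the other direction, with 4 of 12 positive and sums of 6290 ± 941 TPM (4502 to 7412) with eNMES and 7261 ± 579 TPM (6443 to 8231) in controls, and intestine markers summed to 2309 ± 241 TPM and 2588 ± 225 TPM. The libraries of both groups overlapped for each of these sums. Skeletal muscle markers summed to 39174 to 54703 TPM and 43279 to 51934 TPM, as the labelled source of whole larvae would give, and no marker of any list was at 0 in every library. In WT siblings 0 genes of the same 5 lists were called by edgeR, with 4, 2, 2, 7 and 1 at an unadjusted p under 0.05 and medians of -0.17, -0.16, -0.20, -0.34 and -0.12, while DESeq2 called 1 muscle and 1 epidermis marker. The part of these tissues in the differences of the 5 genes was not tested.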

How the data were processed

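PolyA+ RNA of whole larvae was sequenced by the authors from stranded libraries of 2 larvae each, and 24 of the 25 libraries in the labels were examined. Per the labels and methods, reads were trimmed with Trimmomatic, mapped with Bowtie 1.1.2 to the Ensembl zebrafish transcriptome (build GRCz11) and summarised with RSEM 1.2.31. The deposited tables hold, for each gene, the authors' estimated count (not scaled for depth), TPM and an abundance-weighted transcript length. Use of strand in counting is not given in the sources used here.

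Estimated counts were rounded, and the 25832 genes with at least 10 counts over all libraries were tested with edgeR 4.0.16 (R 4.3.3) by the quasi-likelihood test, with TMM scaling, robust dispersions and 1 fit of the 4 groups. P-values were adjusted over all genes tested by the Benjamini-Hochberg method. They measure the spread between libraries only, since separate clutches are not labelled. The biological coefficient of variation was 0.154. Exact permutation tests (scipy 1.17.1) compared means of log2(normalized count + 1) in WT siblings for 6 genes, with adjusted p-values of 0.171 to 0.914 over the 6. Clock sets are the signs of the first principal component of 33 clock genes. The fit was tested on simulated counts.

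The 5 genes and all lists were chosen with earlier results of these data known. Lists are of iron handling, O-linked sugar synthesis, joint, cartilage and tendon matrix, clock genes and markers of 6 tissues. Of the clock list, 0 of 33 genes were called in dmd mutants with eNMES by edgeR (5 at an unadjusted p under 0.05) and 14 were called lower in WT siblings. Named list genes were those called, those at the ends of a list and paralogs of the 5 genes, and a part of them is given. Genes are also named when they had one of the 3 highest correlations with one of the 5, or stood next to it in the order of p. Alternatives were DESeq2 1.42.0, its size factors, other filters and thresholds, fits of 2 groups, the replicate number as a block, clock sets and each library left out. Gene order along the RefSeq assembly GRCz12tu was used to find neighbours, and no coordinates or sequences are given.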

Additional observations from a re-analysis of the deposited data

Results flagged for a closer look

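For ENSDARG00000068947, replicate 1 of the WT sibling controls had 29.2 normalized counts and stood far from the other 3 libraries of its group, which had 7.99 to 10.4. This was the 1 library that stood apart among 15 sets of 4, 8 or 9 libraries looked at, and chance alone gives such a library in about 1 of 20 sets.

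For B3GNT3 ENSDARG00000093521 the eNMES change differed between the genotypes by -2.44 on the log2 scale (edgeR adjusted p = 0.0235). In dmd mutants 7 of 9 stimulated libraries lay below every control, and in WT siblings 3 of 3 lay above every control. The share of all genes that separate so was not counted. For B3GNT3 ENSDARG00000054373 the same difference was -2.90 (edgeR adjusted p = 0.0759), from estimated counts of 0 to 11.9. Both differences draw on the dmd mutant libraries that chose b3gnt3, with which these IDs may share reads, so both p-values may depend on the choice. The first no longer passed without replicate 3 of the stimulated WT siblings (edgeR adjusted p = 0.128). The second lost its call in 11 of 24 fits that left out 1 library. Treatment and clock state go together in WT siblings, so neither difference can be told apart from clock state.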

How the results depend on the processing

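In dmd mutants 33 genes were called, against 15 at an adjusted p of 0.05, 107 with no minimum fold change, 81 with DESeq2 and 14 to 59 when 1 library was left out. The count was 59 without replicate 2 of the stimulated dmd mutants, 21, 15, 18 and 20 without replicates 5, 6, 7 and 8 of them, and 14 and 19 without replicates 2 and 3 of their controls. In WT siblings 763 were called, against 423 at an adjusted p of 0.05, 1675 with no minimum fold change and 259 to 747 when 1 library was left out, with 259, 421 and 275 without replicates 1, 2 and 3 of the stimulated larvae and 388 and 481 without replicates 1 and 3 of the controls. The cause of these shifts was not tested. Same-numbered libraries deviated together weakly or not at all, with correlations from -0.18 to 0.37 in dmd mutants and from -0.08 to -0.02 in WT siblings. In dmd mutants the number went with clock state. Replicates 2 to 6 with eNMES and 1 to 5 of the controls had a negative clock component, and higher numbers a positive one. Batches that span several numbers are not labelled, and this check cannot exclude them. With the replicate block 43 genes were called in dmd mutants and 1058 in WT siblings. The fall or rise in dmd mutants kept its direction for the 5 genes in all 26 alternatives, but past the call threshold stood meltf in 25, prg4b in 24, si:ch211-103n10.5 in 23 and b3gnt3 in 17 of 26, and ENSDARG00000068947 in 13 of the 25 that gave it an adjusted p. These fits reuse the libraries that chose the 5 genes, so they describe how the choice depends on processing and are no test of it. None of the 5 was called in the negative clock set and 1, meltf, in the positive one, where fewer libraries were compared, and 3 were called with the replicate block, without ENSDARG00000068947 and si:ch211-103n10.5. Leaving out 1 library ended the call of b3gnt3 without replicates 5, 6, 7 and 8 of the stimulated mutants and 2, 3 and 8 of the controls, and that of ENSDARG00000068947 without replicates 5, 6, 7, 8 and 9 and 1, 2, 6 and 7. The 5 genes had log2 fold changes over left-out libraries of -0.93 to -0.75 for meltf, -2.50 to -2.01 for ENSDARG00000068947, -0.87 to -0.70 for b3gnt3, 0.61 to 0.73 for prg4b and 1.03 to 1.28 for si:ch211-103n10.5. In WT siblings si:ch211-103n10.5 turned to 0.067 with the replicate block and ran from -0.35 to 0.23 over left-out libraries, and ENSDARG00000068947 from -4.58 to -2.18. Between controls of the genotypes si:ch211-103n10.5 ran from -0.28 to 0.019, and between stimulated larvae ENSDARG00000068947 ran from -0.91 to 1.44. B3GNT3 ENSDARG00000058100 in dmd mutants, near 0, ran from -0.042 to 0.035 over left-out libraries and was 0.047 with the block and 0.054 in the negative clock set. B3GNT3 ENSDARG00000093521 lost its call in dmd mutants with the block (-1.32, edgeR adjusted p = 0.214) and in the negative clock set (-1.19, edgeR adjusted p = 0.587), and gained one in WT siblings in a fit of those 2 groups alone (0.94, edgeR adjusted p = 0.0695) and with the block (1.1005, edgeR adjusted p = 0.0807). Few counts limit ENSDARG00000068947 and B3GNT3 ENSDARG00000054373, for which DESeq2 gave no adjusted p in some comparisons.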
